A study of Rattus norvegicus with 109 samples.

Results

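The spontaneously hypertensive rat (SHR), an inbred strain that develops high blood pressure, was compared with the Wistar Kyoto rat (WKY), the related strain with normal pressure, in animals that had received no microRNA inhibitor. The tissue was the nucleus of the solitary tract (NTS), taken by laser capture microdissection as single sections and assayed by quantitative PCR for 19 transcripts. Of the 109 sections in the series, 65 were from these animals: all sections labelled Scrambled or Sham in either strain were taken. SHR Scrambled had 2 rats (4600 with 14 sections and 4604 with 1), and SHR Sham had 1 rat (4596 with 27 sections). WKY Scrambled had 5 rats (1700, 4610, 4614, 4615 and 4618, with 2 to 4 sections each), and WKY Sham had 3 rats (4611, 4613 and 4617, with 2 or 3 sections each). Scrambled rats received a 25 µL injection of a locked nucleic acid oligonucleotide with no known target, and Sham rats had a cannula and an empty needle for the same time. The strains were age-matched according to the study's design, which gives no age. The other 44 sections came from rats given Cocktail, the pair of anti-miR oligonucleotides.

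The rat was the replicate. Sections of a rat were averaged, and the 3 SHR rats were set against the 8 WKY rats with equal weight for each. The labels give 19 animal numbers in 20 sets of sections, because number 4614 occurs under both WKY Scrambled and WKY Cocktail. The study's design text names 4-5 rats per group, more than the animal numbers show for SHR Scrambled, SHR Sham and WKY Sham. Neither labels nor files name the chip of a section, so strain and PCR run cannot be told apart.

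The NTS is the brainstem site where afferents from arterial baroreceptors end, and it sets the reflex control of sympathetic outflow. Catecholamine neurons of the NTS make noradrenaline through tyrosine hydroxylase (Th) and dopamine β-hydroxylase (Dbh). Angiotensin II, formed by angiotensin-converting enzyme (Ace), acts in the NTS through the type 1 receptor and blunts the baroreflex. Leukotrienes, prostaglandins and interleukins are the inflammatory mediators on the panel, and Fos and Jun are immediate-early transcription factors that pair to form AP-1.

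Every value below is minus ΔCt, a log2 scale on which 1 unit is a doubling of RNA and higher is more RNA, relative to a value subtracted in each section. Levels of different genes on this scale depend on the primers and were not compared. Adjusted p-values are from limma with Benjamini-Hochberg adjustment over all 19 genes, with a threshold of 0.05. The fit put 7 of 19 genes past the threshold, which is 36.8% of those tested. Higher in SHR were 2 genes (10.5%), Alox5ap and Il1b. Lower in SHR were 5 genes (26.3%), Jun, Agtr1a, Ace, Rgs4 and Dbh. The exact two-sided permutation test over rats called 6 of 19 (31.6%), all of these except Dbh. For 5 genes (26.3%), Alox5ap, Il1b, Jun, Agtr1a and Ace, the rat means of the strains did not overlap. Over all 19 genes the median difference, SHR minus WKY, was -0.13.

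Promoter sequences are shown for the 5 of the 7 genes that had one in the promoter set used. Alox5ap and Jun had none there, so the choice does not reflect the strength of the calls. Each is the 250 bases before the annotated start, from RefSeq on the GRCr8 build, 5′ to 3′ on the gene's strand. Capitals mark 2 motifs, each searched on both strands. The first is TATAAA, bound by the general transcription machinery, whose match on the other strand reads TTTATA. The second is TGACG, the core of the cAMP response element, whose match on the other strand reads CGTCA.

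Ace, chr10:91409879-91410128, plus strand: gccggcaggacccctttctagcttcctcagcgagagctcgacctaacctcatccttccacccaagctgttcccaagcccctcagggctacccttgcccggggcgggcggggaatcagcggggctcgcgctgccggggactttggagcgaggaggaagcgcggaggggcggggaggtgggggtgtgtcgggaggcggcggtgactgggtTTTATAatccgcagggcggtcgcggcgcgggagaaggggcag

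Agtr1a, chr17:34435433-34435682, minus strand: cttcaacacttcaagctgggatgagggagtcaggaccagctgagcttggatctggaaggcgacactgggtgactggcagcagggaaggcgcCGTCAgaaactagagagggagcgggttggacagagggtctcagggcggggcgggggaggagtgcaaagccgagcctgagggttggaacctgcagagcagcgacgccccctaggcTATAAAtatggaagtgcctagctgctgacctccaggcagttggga

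Rgs4, chr13:84475885-84476134, minus strand: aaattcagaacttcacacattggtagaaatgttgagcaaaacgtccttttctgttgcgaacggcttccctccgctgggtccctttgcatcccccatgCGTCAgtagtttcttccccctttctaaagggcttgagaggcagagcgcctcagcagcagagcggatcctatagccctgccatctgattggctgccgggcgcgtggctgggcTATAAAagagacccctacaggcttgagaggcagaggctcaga

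Dbh, chr3:30886078-30886327, plus strand: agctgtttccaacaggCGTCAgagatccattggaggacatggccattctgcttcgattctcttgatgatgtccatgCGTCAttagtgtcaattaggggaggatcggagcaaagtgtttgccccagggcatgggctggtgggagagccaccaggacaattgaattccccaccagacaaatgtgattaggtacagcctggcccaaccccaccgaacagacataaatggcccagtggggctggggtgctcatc

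Il1b, chr3:137036582-137036831, minus strand: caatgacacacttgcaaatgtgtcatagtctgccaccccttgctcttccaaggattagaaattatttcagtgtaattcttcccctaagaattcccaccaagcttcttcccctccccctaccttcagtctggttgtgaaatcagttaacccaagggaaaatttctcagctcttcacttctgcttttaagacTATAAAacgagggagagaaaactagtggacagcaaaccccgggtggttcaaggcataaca

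TATAAA lay 42 to 37 bases before the start of Ace (other strand) and of Rgs4, 45 to 40 before that of Agtr1a and 60 to 55 before that of Il1b. TGACG was found on the other strand of Agtr1a (159 to 155 bases before the start), Rgs4 (153 to 149) and Dbh (174 to 170 and 234 to 230). Among the 12 reported genes with a promoter in the table, 5 held TATAAA, against 12.9% of 33469 rat promoters of this length, and 5 held TGACG, against 18.2%. The AP-1 motif TGANTCA was in none of the 5 sequences shown. It was in 2 of the 12, Il1a and Th, against 6.34% of all promoters. The motifs were chosen after the expression values were seen, overlap no other searched motif in the 5 sequences, and are a description of the sequence.

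**Figure D1:**
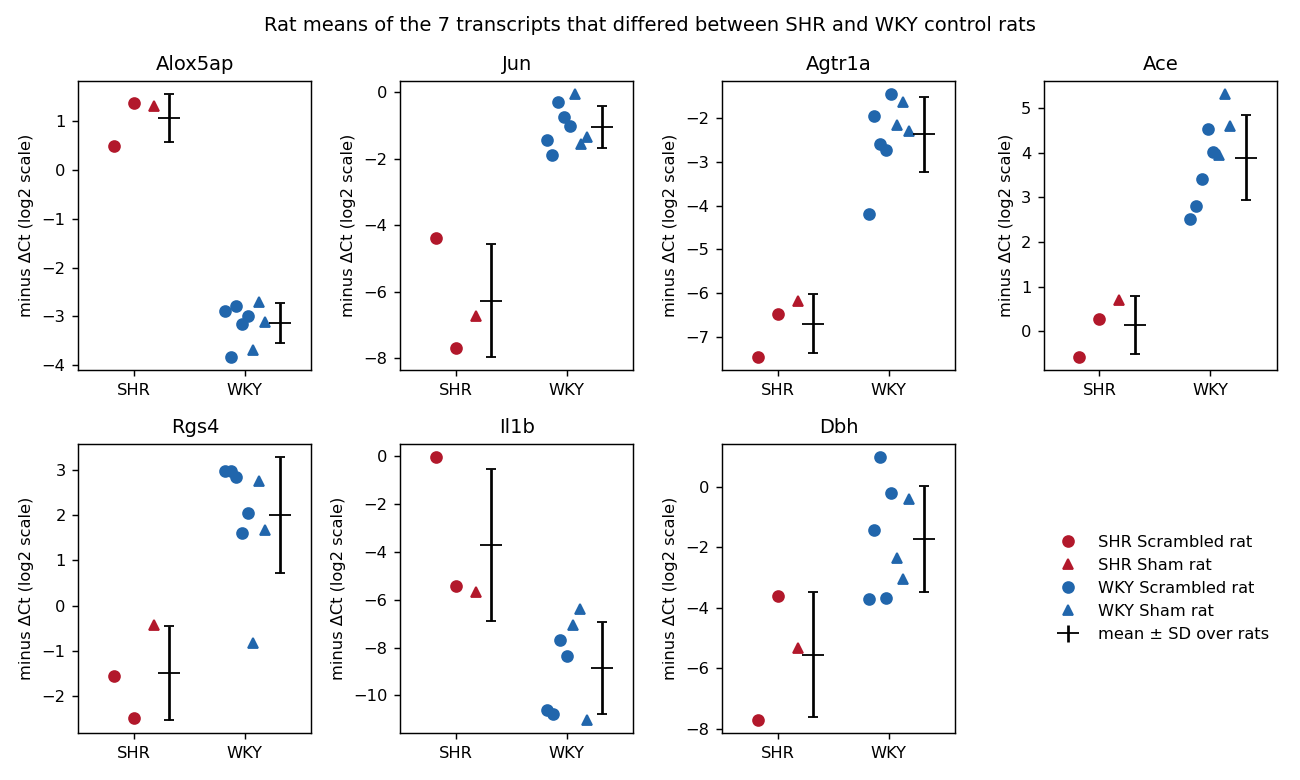
Minus ΔCt (log2 scale, vertical axis) of the 7 genes past the threshold, 1 point per rat, SHR left and WKY right, circles for Scrambled and triangles for Sham, bars mean ± SD over rats. Alox5ap and Il1b sat higher in all 3 SHR rats, and Jun, Agtr1a and Ace lower, with no overlap, while Rgs4 and Dbh overlapped in 1 SHR rat each.

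Of the 3 reported angiotensin genes, Agtr1a and Ace were lower in SHR and none was higher, with a median difference of -3.75, against 26.3% of all 19 genes lower and a median of -0.13. With 3 genes, nothing is read about the group as a whole. Agtr1a (NM_030985, chromosome 17), the type 1a receptor for angiotensin II, measured -7.45 and -6.48 in the SHR Scrambled rats 4600 and 4604 and -6.16 in the SHR Sham rat 4596. In WKY it measured -4.19, -1.96, -2.59, -2.74 and -1.46 in the Scrambled rats (in the order listed above) and -2.17, -1.63 and -2.30 in the Sham rats. All 3 SHR rats lay below all 8 WKY rats. The mean was -6.70 ± 0.67 in SHR (SD, n = 3) and -2.38 ± 0.85 in WKY (SD, n = 8), a difference of -4.32 (SE 0.571, 95% confidence interval -5.56 to -3.07), or 19.9-fold lower in SHR (limma adjusted p = 4.758e-05). No value was recorded for Agtr1a in 15 of 42 SHR sections, while all 23 WKY sections had one, so the SHR mean rests on the 27 sections with a value. Of these, 16 lay below the lowest WKY section.

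Ace (NM_012544.1, chromosome 10), which converts angiotensin I to angiotensin II, measured -0.57 and 0.29 in the SHR Scrambled rats and 0.71 in the SHR Sham rat. The WKY rats measured 2.52, 2.80, 3.41, 4.53 and 4.02 after Scrambled and 3.95, 5.31 and 4.59 after Sham. The lowest WKY rat was above the highest SHR rat. Means were 0.14 ± 0.65 in SHR (SD, n = 3) and 3.89 ± 0.94 in WKY (SD, n = 8), a difference of -3.75 (SE 0.609, 95% confidence interval -5.08 to -2.42), 13.45-fold lower in SHR (limma adjusted p = 0.000251). Agtrap, which binds the type 1 receptor and promotes its internalisation, averaged 1.08 ± 0.47 in SHR and 0.31 ± 0.49 in WKY. Its difference of 0.76 did not pass (SE 0.422, limma adjusted p = 0.168).

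Ratios of a pair of transcripts within a section do not depend on the value that was subtracted. For this reason 7 pairs were compared with the exact permutation test over rats, adjusted over the 7 pairs. The pairs were chosen with earlier results of these data known and share their genes with the tests above, so they are not separate support. Pairs whose rats did not overlap all reached the smallest possible exact permutation p of 0.00606, so their equal adjusted p does not rank them. The size of a ratio depends on the primers, and only its difference between strains is read. Each ratio used only sections with a value for both genes. In rat 4600, Agtr1a had a value in 6 of 14 sections, so its ratios there rest on at most those. Rat 4604 had 1 section. Agtr1a over Agtrap had a log2 ratio of -7.97 ± 0.44 in SHR (SD, n = 3) and -2.69 ± 1.10 in WKY (SD, n = 8), a difference of -5.28, or 38.8-fold lower in SHR (exact permutation, adjusted p = 0.0106). Agtr1a over Ace had -7.14 ± 0.39 in SHR and -6.27 ± 0.85 in WKY. That difference of -0.87 did not pass (exact permutation, adjusted p = 0.148), and the SHR rats, between -7.54 and -6.76, overlapped the WKY rats, between -7.27 and -4.75.

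In the leukotriene pathway, 1 of 3 genes was higher in SHR, none was lower, and the median difference was 0.62. Of all 19 genes, 10.5% were higher and 26.3% lower, with a median of -0.13. With 3 genes, nothing is read about the pathway as a whole. Alox5ap (NM_017260.2, chromosome 12) encodes the protein that presents arachidonic acid to 5-lipoxygenase, the first step of leukotriene synthesis. It measured 0.50 and 1.38 in the SHR Scrambled rats and 1.32 in the SHR Sham rat. WKY rats measured -2.88, -3.83, -2.79, -3.16 and -2.98 after Scrambled and -3.68, -2.69 and -3.11 after Sham. Every SHR rat was above every WKY rat, and so was every section: the 42 SHR sections ran from -0.99 to 2.89 and the 22 WKY sections with a value from -6.90 to -1.02. The mean of 1.06 ± 0.49 in SHR (SD, n = 3) and -3.14 ± 0.41 in WKY (SD, n = 8) gave a difference of 4.21 (SE 0.399, 95% confidence interval 3.33 to 5.08), 18.5-fold higher in SHR (limma adjusted p = 4.557e-06).

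Ltb4r, a receptor for leukotriene B4, averaged 2.79 ± 1.15 in SHR and 2.17 ± 0.87 in WKY (difference 0.62, SE 0.638, limma adjusted p = 0.472). Ptgr1, which inactivates leukotriene B4 and reduces prostaglandins, averaged -0.91 ± 0.86 in SHR and -0.78 ± 0.56 in WKY (difference -0.13, limma adjusted p = 0.842). Within sections, Alox5ap over Ltb4r had a log2 ratio of -1.73 ± 0.96 in SHR (SD, n = 3) and -5.45 ± 0.94 in WKY (SD, n = 8). The ratio was 13.2-fold higher in SHR (difference 3.72, exact permutation, adjusted p = 0.0106), and the rats did not overlap.

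Among the interleukins, 1 of 3 was higher in SHR, none was lower, and the median difference was 0.01. The shares of all 19 genes were 10.5% higher and 26.3% lower, with a median of -0.13, and nothing is read about the group from 3 genes. Il1b (NM_031512.2, chromosome 3), the proinflammatory interleukin-1β, measured -0.04 and -5.42 in the SHR Scrambled rats and -5.70 in the SHR Sham rat. In WKY it measured -10.63, -10.77, -7.71 and -8.36 in the Scrambled rats 1700, 4610, 4615 and 4618 and -7.08, -6.38 and -11.02 in the Sham rats, with no value in rat 4614. The SHR rats lay above the WKY rats, and rat 4600 stood well above the other SHR rats. Means were -3.72 ± 3.19 in SHR (SD, n = 3) and -8.85 ± 1.93 in WKY (SD, n = 7), a difference of 5.13 (SE 1.41, 95% confidence interval 2.02 to 8.25), 35.1-fold higher in SHR (limma adjusted p = 0.0128). Without rat 4600 the difference was 3.29 and the call was lost (limma adjusted p = 0.0818). It was 5.98 without rat 4604 and 6.12 without rat 4596. Il1b was measured in 26 of 42 sections from SHR and 15 of 23 from WKY.

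Il10, which restrains inflammation, measured -1.50, -0.76 and -2.46 in the SHR rats and between -2.44 and 2.19 in the WKY rats. Its difference of -1.90 did not pass (SE 0.857, 95% confidence interval -3.77 to -0.03, limma adjusted p = 0.099986). The lowest WKY rat, 1700 at -2.44, had Il10 sections from -10.37 to 0.90, with a median of -0.14. Il1a, interleukin-1α, averaged -3.76 ± 2.45 in SHR and -3.77 ± 2.83 in WKY (difference 0.01, 95% confidence interval -3.61 to 3.63, limma adjusted p = 0.996). In SHR rats 4600, 4604 and 4596 it measured -0.96, -5.48 and -4.85. The ratio of Il1b over Il10 was -2.19 ± 3.24 in SHR (SD, n = 3) and -8.84 ± 3.12 in WKY (SD, n = 7), a difference of 6.65 (exact permutation, adjusted p = 0.035). That call was lost in 9 of the 11 repeats of the test that each left out 1 rat, with differences of 4.81 to 7.88. The WKY Sham rat 4611, at -2.88, lay above the SHR rats 4604, at -4.65, and 4596, at -3.40. The value of rat 4611 rests on 1 of its 2 sections, the only one with Il1b, where Il10 was -4.19 against 4.78 in the other. Rat 4604 had 1 section.

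Neither prostaglandin gene passed. Ptgs1, the constitutive cyclooxygenase, averaged -2.31 ± 0.44 in SHR and -1.41 ± 0.71 in WKY (difference -0.90, SE 0.496, limma adjusted p = 0.168). Ptgs2, the inducible cyclooxygenase, measured -1.15 in rat 4600 and -4.70 in rat 4596, and had no value in rat 4604. WKY rats measured between -4.99 and -1.73, a difference of 0.58 with a 95% confidence interval of -1.61 to 2.77 (limma adjusted p = 0.678). Ptgs2 over Ptgs1 differed by 1.31 with the SHR rats on either side of all WKY rats (exact permutation, adjusted p = 0.244). A value for Ptgs2 was recorded in an average of 45.8% of the sections of an SHR rat and 93.8% of those of a WKY rat (exact permutation, p = 0.0182, adjusted p = 0.0727 over the 4 genes with over 10% missing values). The SHR rats differed widely: 13 of 14 sections had a value in rat 4600 and 12 of 27 in rat 4596, and the 1 section of rat 4604 had none. For Agtr1a the shares were 72.3% in SHR and 100% in WKY, and for Dbh 78.5% in SHR and 100% in WKY (exact permutation, adjusted p = 0.0727 for each). In both, the 1 section of rat 4604 counted as 100%. None of the 4 shares passed, Il1b being the fourth. For Agtr1a and Dbh, rat 4604 tied with all WKY rats at 100%. With that tie their exact permutation p of 0.0545 was the smallest possible, so they could not pass and nothing is read from it.

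**Figure D2:**
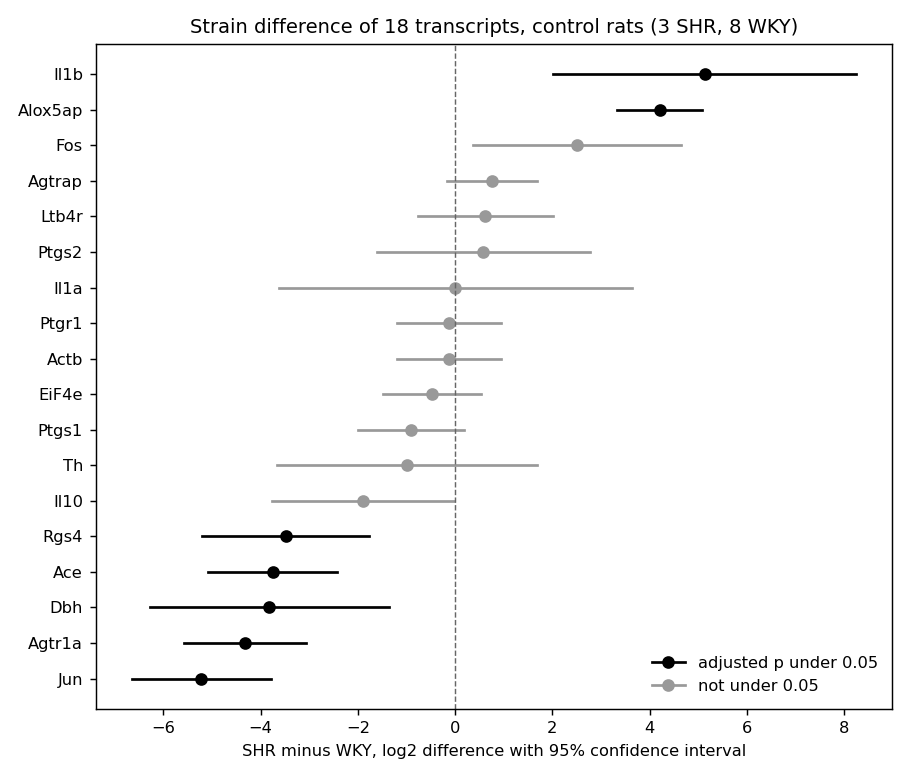
SHR minus WKY difference (log2 units, horizontal axis) with 95% confidence intervals for the 18 reported genes, black where the limma adjusted p was under 0.05. Il1b (5.13) and Alox5ap (4.21) lie to the right, and Jun (-5.22), Agtr1a, Dbh, Ace and Rgs4 to the left of 0.

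Of the immediate-early factors, 1 of 2 was lower in SHR and none higher, against 26.3% of all 19 genes lower and 10.5% higher. From 2 genes, nothing is read about the group. Jun (NM_021835, chromosome 5) measured -4.40 and -7.68 in the SHR Scrambled rats and -6.72 in the SHR Sham rat. WKY rats measured -1.44, -1.89, -0.30, -0.75 and -1.01 after Scrambled and -0.06, -1.56 and -1.36 after Sham. All SHR rats lay below all WKY rats, and so did 34 of the 37 SHR sections with a value when set against the lowest WKY section. The mean of -6.27 ± 1.69 in SHR (SD, n = 3) and -1.05 ± 0.64 in WKY (SD, n = 8) gave a difference of -5.22 (SE 0.654, 95% confidence interval -6.65 to -3.79), 37.3-fold lower in SHR (limma adjusted p = 4.087e-05). The difference was -6.16 without SHR rat 4600 and -4.51 without SHR rat 4604, past the threshold in both (limma adjusted p = 5.69e-06 and 0.0003548).

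Fos measured 4.69 in the SHR Scrambled rat 4600, 0.15 in 4604 and -0.30 in the SHR Sham rat 4596, and between -2.40 and 0.29 in the WKY rats. Only rat 4600 lay above all WKY rats, and the difference of 2.50 did not pass (SE 0.982, 95% confidence interval 0.36 to 4.65, limma adjusted p = 0.061). Without that rat the Fos difference was 0.91 (limma adjusted p = 0.38). Fos over Jun within sections was 8.87, 7.83 and 6.48 in SHR rats 4600, 4604 and 4596, against -1.13 to 1.05 in the WKY rats. The mean log2 ratio of 7.73 ± 1.20 in SHR (SD, n = 3) and 0.01 ± 0.87 in WKY (SD, n = 8) differed by 7.72, or 211-fold, the largest of the 7 pairs (exact permutation, adjusted p = 0.0106). Without rat 4596 it was 8.34.

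For catecholamine synthesis, 1 of 2 genes was lower in SHR and none higher, against 26.3% of all 19 genes lower and 10.5% higher. Nothing is read about the pathway from 2 genes. Dbh (NM_013158, chromosome 3), which converts dopamine to noradrenaline, measured -7.70 and -3.61 in the SHR Scrambled rats and -5.33 in the SHR Sham rat. WKY rats measured -3.72, -1.44, 0.99, -3.68 and -0.20 after Scrambled and -2.36, -3.05 and -0.39 after Sham. The SHR rat 4604 overlapped the lowest WKY rats. Means were -5.55 ± 2.06 in SHR (SD, n = 3) and -1.73 ± 1.75 in WKY (SD, n = 8), a difference of -3.82 (SE 1.12, 95% confidence interval -6.27 to -1.37), 14.1-fold lower in SHR (limma adjusted p = 0.0146). The exact permutation test did not call it (adjusted p = 0.0658), and neither did limma without rat 4600 (difference -2.74, adjusted p = 0.116). Without rat 4604 the difference was -4.79. Dbh had no value in 10 of the 42 SHR sections, while all 23 WKY sections had one.

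Th, the rate-limiting enzyme of the pathway, measured -1.27, 4.75 and 2.46 in SHR rats 4600, 4604 and 4596 and between 0.89 and 5.74 in WKY rats. The difference of -0.99 did not pass (95% confidence interval -3.66 to 1.68, limma adjusted p = 0.549). Dbh over Th was taken where both had a value, which in rat 4600 was at most 6 of 14 sections. This ratio had a log2 value of -7.78 ± 0.85 in SHR (SD, n = 3) and -4.70 ± 0.99 in WKY (SD, n = 8). It was 8.43-fold lower in SHR (difference -3.08, exact permutation, adjusted p = 0.0106). In the microdissected sections, fewer cells of a type and less RNA per cell cannot be told apart. Of the genes listed as cell type markers, Th and Dbh, for noradrenergic neurons, were the only ones measured. None of those listed for neurons in general, astrocytes, microglia, oligodendrocytes, endothelium or leukocytes was among the 19 genes. The part of cell makeup in the strain differences was not tested.

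Rgs4 (NM_017214, chromosome 13), which shortens signalling by Gq- and Gi-coupled receptors, measured -1.55 and -2.48 in the SHR Scrambled rats and -0.42 in the SHR Sham rat. WKY rats measured 2.97, 2.98, 2.84, 1.61 and 2.05 after Scrambled and -0.83, 2.75 and 1.67 after Sham. The WKY Sham rat 4611 lay below the SHR Sham rat, and the other WKY rats lay above all SHR rats. The mean of -1.48 ± 1.03 in SHR (SD, n = 3) and 2.004 ± 1.28 in WKY (SD, n = 8) gave a difference of -3.49 (SE 0.789, 95% confidence interval -5.21 to -1.76), 11.2-fold lower in SHR (limma adjusted p = 0.00332). Among Sham rats alone, the 1 SHR rat differed from the mean of the 3 WKY rats by -1.61, and from 1 SHR rat no call is read.

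The housekeeping transcripts did not pass. Actb averaged 7.14 ± 0.21 in SHR and 7.27 ± 0.72 in WKY (difference -0.13, limma adjusted p = 0.842), and EiF4e 2.28 ± 0.54 in SHR and 2.75 ± 0.58 in WKY (difference -0.48, limma adjusted p = 0.467).

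**Figure D3:**
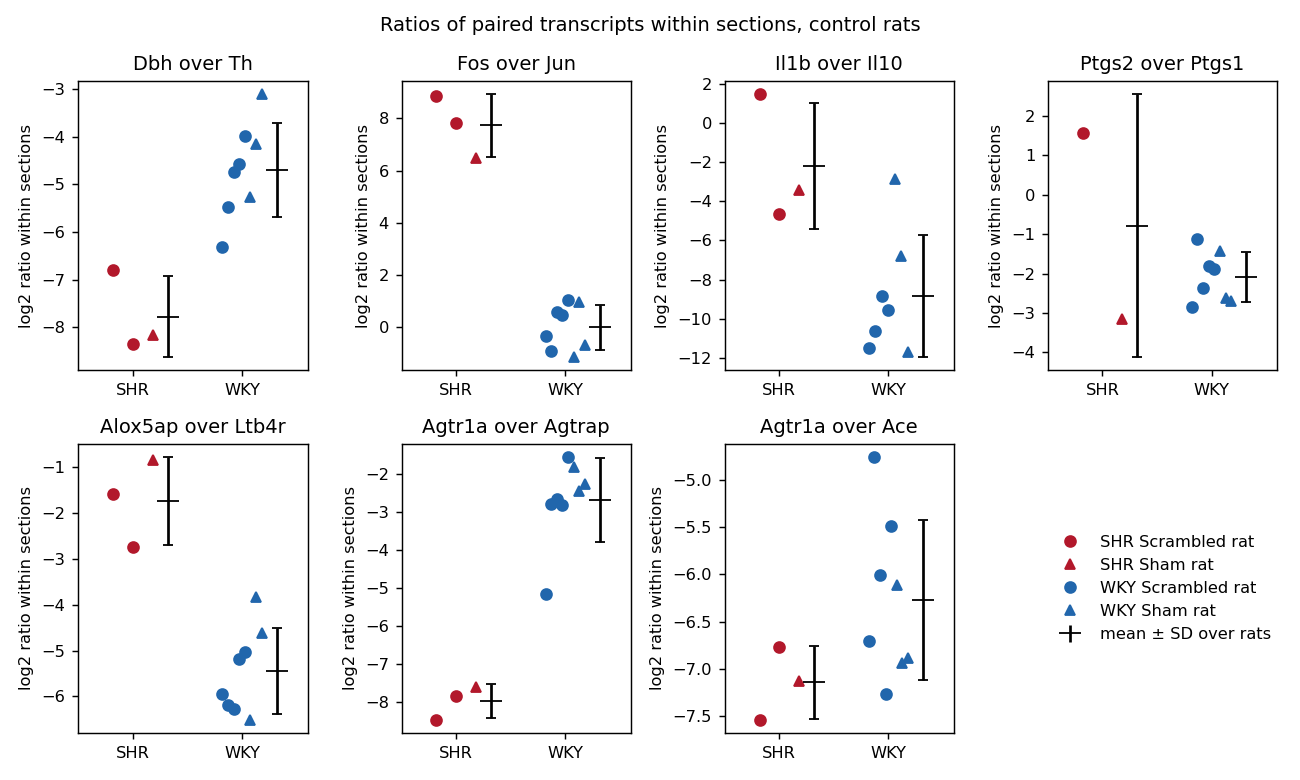
Mean log2 ratio within sections (vertical axis) for 7 pairs of genes, 1 point per rat, SHR left and WKY right, circles for Scrambled and triangles for Sham, bars mean ± SD. The strains did not overlap for Fos over Jun, Agtr1a over Agtrap, Alox5ap over Ltb4r and Dbh over Th.

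The SD among sections of a rat had a median of 1.24 over the 18 genes, and the SD between rats of a strain a median of 0.96. In 12 of 18 genes the SD among sections was the larger. The SD between rats is that of rat means, each averaged over its sections, so these SDs are not like measures. The count does not show which variation is wider. Fos sections of rat 4600 ran from -1.05 to 7.58, while those of rat 4596 ran from -2.36 to 0.95. Jun sections of rat 4600 ran from -8.10 to 1.92, and those of rat 4596 from -8.13 to -5.21. Rat 4600 was thus the SHR rat with the widest section range of Fos and Jun. Among the SHR rats it also had the highest means of Il1a, Il1b, Fos and Jun, and of Ptgs2, which had no value in rat 4604. Its means were the lowest for Dbh, Th, Ace, Agtr1a, Agtrap, Alox5ap, Ltb4r, Ptgr1, Ptgs1 and Actb. For Il10, Rgs4 and EiF4e it lay between the other SHR rats.

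**Figure D4:**
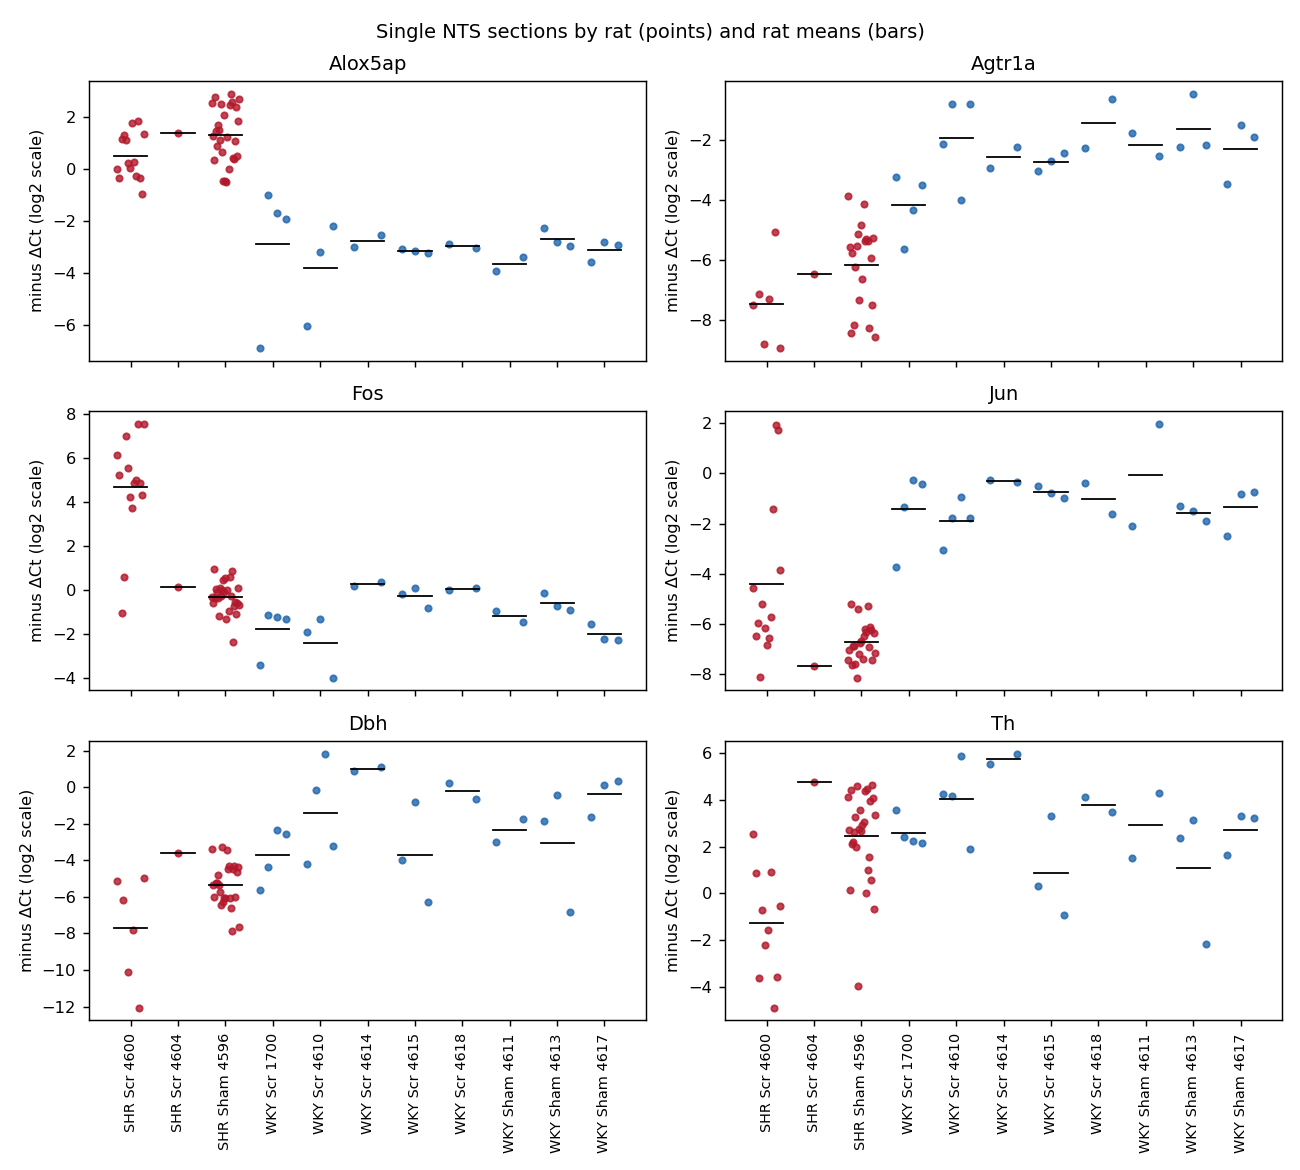
Minus ΔCt (log2 scale, vertical axis) of single sections, 1 column per rat, SHR rats in red at left and WKY rats in blue at right, black bars rat means. All 42 SHR sections of Alox5ap lie above the WKY sections, and Fos is high mainly in sections of SHR rat 4600.

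The value subtracted from the raw cycle numbers differed between the strains. For all 42 SHR sections it equalled the median cycle number (Ct) of the section. For none of the 23 WKY sections did it, and there it lay 0.35 ± 0.47 cycles below the median (SD over sections). Section median Ct ran from 11.3 to 17.1 in SHR and from 12.2 to 22.98 in WKY, with 0 SHR and 4 WKY sections above 18. Missing values made up 79 of 798 in SHR and 15 of 437 in WKY. Centring every section on its own median shifted the median of all gene differences by -0.29 and called 8 genes. Scaling to Actb and EiF4e shifted it by 0.30 and called 8, and using raw cycle numbers shifted it by -0.66 and called 6. Jun, Agtr1a, Ace, Rgs4, Dbh and Alox5ap kept direction and call under all 3, and Il1b was not called on raw cycle numbers (difference 3.34, limma adjusted p = 0.152).

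The strain difference was then compared with that in Cocktail rats (5 SHR and 4 WKY), in a fit of all 6 groups. Number 4614 entered the fit under both WKY Scrambled and WKY Cocktail, as separate rats. No gene of 19 (0.0%) had a strain difference under control procedures that differed from that under Cocktail (limma interaction, lowest adjusted p = 0.872, 0 genes at an unadjusted p under 0.05). In Cocktail rats 7 of 19 genes (36.8%) passed. Alox5ap differed by 4.44 there, Agtr1a by -3.09, Ace by -3.25, Jun by -4.23 and Rgs4 by -2.41, each past the threshold, as were Il10 at -2.22 and Agtrap at 1.10. Dbh at -2.30 and Il1b at 1.68 did not pass in Cocktail rats. The intervals of the interaction were wide, at -1.56 to 1.21 for Alox5ap, -2.90 to 0.57 for Agtr1a and -1.27 to 7.01 for Il1b.

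**Figure D5:**
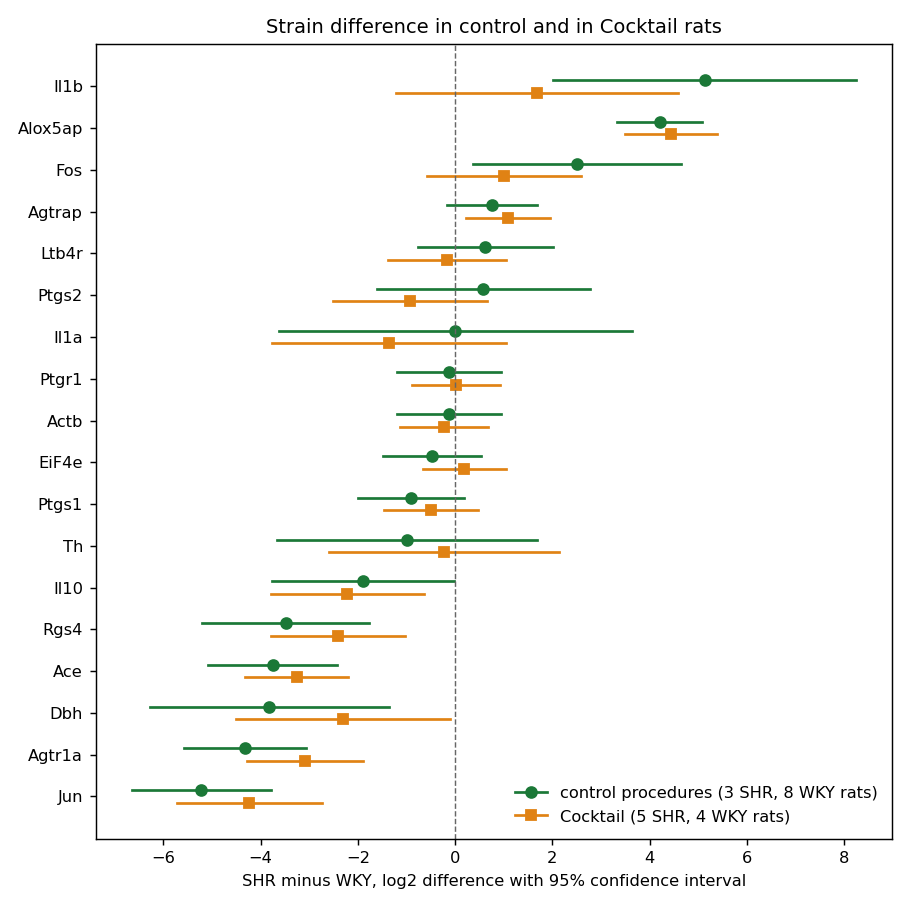
SHR minus WKY difference (log2 units, horizontal axis) with 95% confidence intervals, in control rats (circles) and Cocktail rats (squares), for 18 genes. The intervals of the 2 settings overlap for every gene, with Alox5ap at 4.21 in control rats and 4.44 in Cocktail rats.

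Pooling Scrambled and Sham was examined in the same way. The strain difference after Scrambled did not differ from that after Sham for any of 19 genes (0.0%, limma interaction, lowest adjusted p = 0.555), and 1 gene, Ptgs2, had an unadjusted p under 0.05 (difference of differences 4.20). For Ptgs2 each SHR group was 1 rat, 4600 after Scrambled and 4596 after Sham, so that value compares single animals and nothing is read from its p. For every gene SHR Sham was a single rat, assumed to vary like the other groups. Among the 18 reported genes this contrast was largest for Il1a, at 5.70 with an interval of -0.54 to 11.93. For Il1b it was 4.18 with an interval of -2.49 to 10.84, and for Rgs4 it was -2.89 with an interval of -6.29 to 0.51.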

How the data were processed

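Minus ΔCt per gene and section was deposited by the authors on a log2 scale, and the raw cycle numbers (Ct) were deposited as a separate score per gene and section, per the file headers. Per the labels' protocols, the PCR ran for 30 cycles on BioMark chips with EvaGreen, intron-spanning primers and the maker's software for Ct; the software version and the rule for the subtracted value are not given in the sources used here. Depth has no meaning for these data, and the number of rats limits precision.

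Sections were grouped by the strain, treatment and animal labels and averaged per rat. Raw sections were matched to normalised ones by the constant sum of their values within the same rat, which for 20 of the 65 control sections gave another section name. Missing values were left out of means. limma 3.58.1 in R 4.3.3 (lmFit and eBayes, strain only) was run on the rat means, adjusted over 19 genes; interactions used 6 or 4 groups. Exact permutation tests were two-sided over rats: 165 labelings give a smallest p of 0.00606. Figures were drawn with matplotlib 3.10.9. The limma and permutation steps were tested on simulated data. Alternatives covered normalisation, missing values, section median, late sections, weights, procedure and each rat left out. The members, gene lists and pairs were chosen with earlier results of these data known. Genes past the threshold were named in full and all others by difference and adjusted p. The no-surgery condition in the protocol was not analysed here, and 1 of the 19 genes is not reported here. All 18 reported genes were matched by transcript to RefSeq.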

Additional observations from a re-analysis of the deposited data

Results flagged for a closer look

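In the groups of 4 to 10 rats, the highest or lowest rat mean was set against Dixon's 95% critical value. Chance flags about 1 in 20 independent groups, and 4 of 36 groups were flagged. Only WKY groups were large enough to be flagged. The WKY Scrambled rats also belong to the WKY control rats, so the groups overlap and the count is not set against that rate. Agtr1a was lowest in the WKY Scrambled rat 1700, at -4.19, far from the other WKY rats but above all SHR rats. Rgs4 was lowest in the WKY Sham rat 4611, at -0.83, within the range of the SHR rats. EiF4e was highest in the WKY Scrambled rat 4614, at 4.08, both among the 8 WKY rats and among the 5 WKY Scrambled rats. The number 4614 is the one that the labels also give to WKY Cocktail sections. The SHR groups had too few rats for this comparison.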

How the results depend on the processing

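Over 25 alternatives, between 5 and 9 genes were called. Ace, Alox5ap and Jun kept direction and call in all 25, and Agtr1a in the 24 that tested it. One of these, Sham rats alone, has 1 SHR rat, assumed to vary like the 3 WKY rats, so its calls, made or missed, say nothing about stability and only its values are read. Without SHR rat 4600, 5 genes were called. Rgs4, at -1.61 among Sham rats alone, kept its call in every other alternative. Dbh lost its call without rat 4600, among Scrambled rats alone (-4.04, limma adjusted p = 0.0911) and by exact permutation. Il1b lost it without rat 4600, on raw cycle numbers and with missing values at the gene's lowest value (4.67, limma adjusted p = 0.052), and was 2.46 among Sham rats alone. Fos gained a call in 6 alternatives, among them without SHR rat 4604 (3.19, limma adjusted p = 0.0393), without SHR rat 4596 (3.41, 0.0242) and without WKY rat 4614 (2.69, 0.0498). Il10 gained one in 6, among them without WKY rat 1700 (-2.29, limma adjusted p = 0.0155). It was also called with sections centred on their median, with section medians, without late sections and with rats weighted by sections. The causes were not tested.

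Some differences that were not called changed sign. Il1a was -0.28 with sections centred on their median, -0.64 on raw cycle numbers, -0.0472 with missing values at the lowest value, -0.0029 with section medians, -0.77 in the fit of 6 groups and -3.62 among Sham rats alone, from the single SHR rat. Ptgr1 was 0.16 and Actb 0.17 against Actb and EiF4e, 0.0124 and 0.0398 in the fit of 6 groups, and 0.53 and 0.65 among Sham rats. Ltb4r was -0.033 on raw cycle numbers. Ptgs2 had no value in 17 of 42 SHR and 2 of 23 WKY sections. Its difference was -3.18 with missing values at the lowest value, so its sign depends on how they are handled. Among Sham rats Ptgs2 was -1.60 and Th 0.21. Ptgs2 over Ptgs1 was -2.54 with missing values at the lowest value. Leaving out each rat gave ranges of -2.38 to 0.63 for Th, -0.51 to 0.34 for Ptgr1, -1.19 to 2.36 for Ptgs2, -1.39 to 0.87 for Il1a, -0.0426 to 0.98 for Ltb4r, -0.27 to 0.0438 for Actb and -1.05 to 3.67 for Ptgs2 over Ptgs1. Against Cocktail, Alox5ap ran from -0.47 to 0.14. For Scrambled against Sham the ranges were -2.69 to 1.41 for Dbh, -0.74 to 0.24 for Agtr1a, -0.88 to 2.41 for Jun, -0.85 to 0.0266 for Alox5ap and -0.12 to 0.74 for Ace. The count of genes whose share of sections with a value was called ran from 0 to 2, with 2 without SHR rat 4604. Il1b over Il10 lost its call in 10 of 14 alternatives, and the 4 ratios with non-overlapping rats kept theirs in all 14. Leaving out a rat in the contrast of Scrambled with Sham, and requiring at least 2 sections per rat for the ratios, were chosen after seeing the data. Rat 4596 could not be left out of the interaction contrasts, being the only SHR Sham rat. No paired analysis was possible because the numbers in the labels count sections and no rat belongs to both strains.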
